A study of Caenorhabditis elegans with 2 samples.

Results

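The regions described here are the promoter regions of the X chromosome in a map of ZAG-1 occupancy in Caenorhabditis elegans. The assay was chromatin immunoprecipitation with sequencing (ChIP-seq) of whole animals of the third larval stage (L3), of mixed sex and of unstated age. The animals were of strain OP83, genotype unc-119(ed3) III; wgIs83, in which the insertion carries zag-1 fused to eGFP, and every animal of the series had this genotype. There was 1 group with 2 biological replicates. No comparison between conditions was possible, and cell types could not be told apart in whole larvae. Members were taken from the region list that the authors made from both replicates together in build ce11. A region was kept when it lay on the X chromosome with its summit between 1000 bp upstream and 100 bp downstream of the start of a protein-coding transcript. This gave 482 of the 9985 nuclear regions of the list, out of 1932 on the X chromosome. The joint list includes background regions on purpose, so a member is a candidate region and not a called binding site. No library of another factor was analysed here, so signal common to any such library cannot be told apart from ZAG-1 occupancy.

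ZAG-1 is the worm relative of the vertebrate ZEB proteins, which carry zinc fingers and a homeodomain and are known mainly as repressors. In worms it is known for its part in the differentiation of neurons, including axon development. The X chromosome of worms differs between the sexes in copy number, and the dosage compensation complex lowers its transcription in hermaphrodites after loading at recruitment sites that hold a sequence word enriched there. Annotated starts of many worm genes are sites of trans-splicing, which remove the first stretch of the transcript, so the true start of transcription can lie further upstream than the annotation shows.

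The sequences of 11 of the 20 members of highest score are shown because they hold words named below or a run that a pair of them shares. Each is 101 bp centred on the summit, read 5′ to 3′ on the plus strand of the RefSeq WBcel235 genome, which is the same assembly as ce11. In the sequences by nspc-17, ins-39 and fbxb-58 the capitals mark 3 words found on either strand. They are GCGCAGGG, the core of the word of dosage compensation recruitment sites, CACCTG, the word bound by vertebrate ZEB proteins, and GCGAAGGG, which was chosen after the sequences were seen. In the sequences by epn-1 and F28C10.3 the capitals mark a run of 12 bp that both hold. It was marked because neither sequence holds one of the words. Other pairs share longer runs, given below, and the run was not tested as an element.
nspc-17, chrX:14525876-14525976: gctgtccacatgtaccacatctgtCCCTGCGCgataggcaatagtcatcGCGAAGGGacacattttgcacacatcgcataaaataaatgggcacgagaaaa
ins-39, chrX:1344997-1345097: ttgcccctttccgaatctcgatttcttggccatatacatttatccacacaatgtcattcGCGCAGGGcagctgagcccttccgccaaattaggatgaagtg
fbxb-58, chrX:1627098-1627198: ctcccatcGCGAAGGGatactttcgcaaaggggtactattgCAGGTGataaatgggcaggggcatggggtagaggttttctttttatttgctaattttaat
epn-1, chrX:14818955-14819055: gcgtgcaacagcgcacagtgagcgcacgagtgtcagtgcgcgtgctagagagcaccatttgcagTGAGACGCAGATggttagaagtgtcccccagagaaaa
F28C10.3, chrX:535888-535988: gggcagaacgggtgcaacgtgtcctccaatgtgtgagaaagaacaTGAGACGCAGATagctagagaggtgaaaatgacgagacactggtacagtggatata

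In the next 6 sequences the capitals mark GAGAGA, on either strand, with overlapping matches joined into 1 run. The sequence by F09C8.2 held 5 overlapping or separate matches, dpy-23 held 3, and ain-1 and unc-115 held 2 each.
sms-2, chrX:949646-949746: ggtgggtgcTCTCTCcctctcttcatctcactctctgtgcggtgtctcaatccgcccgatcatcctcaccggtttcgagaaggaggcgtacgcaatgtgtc
ain-1, chrX:16612515-16612615: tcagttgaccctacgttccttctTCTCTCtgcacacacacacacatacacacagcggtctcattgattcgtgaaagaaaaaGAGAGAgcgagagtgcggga
F09C8.2, chrX:16147911-16148011: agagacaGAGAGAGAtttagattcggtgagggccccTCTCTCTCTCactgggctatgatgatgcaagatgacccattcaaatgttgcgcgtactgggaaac
dpy-23, chrX:4388949-4389049: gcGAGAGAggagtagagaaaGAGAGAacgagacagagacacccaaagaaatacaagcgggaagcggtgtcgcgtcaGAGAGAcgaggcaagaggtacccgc
rpl-11.2, chrX:2242935-2243035: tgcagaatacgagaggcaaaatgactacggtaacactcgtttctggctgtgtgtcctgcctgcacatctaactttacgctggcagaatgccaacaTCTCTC
unc-115, chrX:10146691-10146791: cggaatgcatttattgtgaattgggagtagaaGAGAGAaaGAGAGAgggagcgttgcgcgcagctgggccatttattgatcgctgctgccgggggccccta

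The 482 members had 431 nearest genes. A single region was placed at 385 of these genes, 2 regions at 41 and 3 regions at 5. Overlap with another member was seen for 36 members, which therefore do not count as separate sites. The promoter windows of more than 1 gene held the summits of 19 members. Counting every gene whose window held a summit, 448 of 2731 X-linked protein-coding genes had a promoter region (16.4%, exact 95% interval 15.03 to 17.8). Over all nuclear protein-coding genes the share was 16.3%, and on the autosomes it was 2804 of 17242, also 16.3% (two-sided Fisher's exact test, adjusted p = 0.845 over the 9 share comparisons made). The 5 autosomes ran from 12.4% to 20.3%, so the X chromosome fell within their spread. The sign of this small difference turned with the 500 bp window, with replicate 1 alone and without regions near tRNA genes.

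The score of a member is the signal value that the authors deposited for it in the joint list, and how it was computed is not given in the sources used here. It ran from 12.2 to 175, with quartiles of 13.7, 15.7 and 20.2, and 95% of members lay at or below 40.4. Autosomal promoter regions had a median of 15.2, with medians of 14.998 to 15.4 on single autosomes, and X regions outside promoters had a median of 14.8. The median on the X chromosome was therefore above that of each autosome, but by a small step, and the ratio to the autosomal median was 1.00 in the highest regions of replicate 2 alone. The upper quartile of autosomal promoter regions was 18.6.

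**Figure D1:**
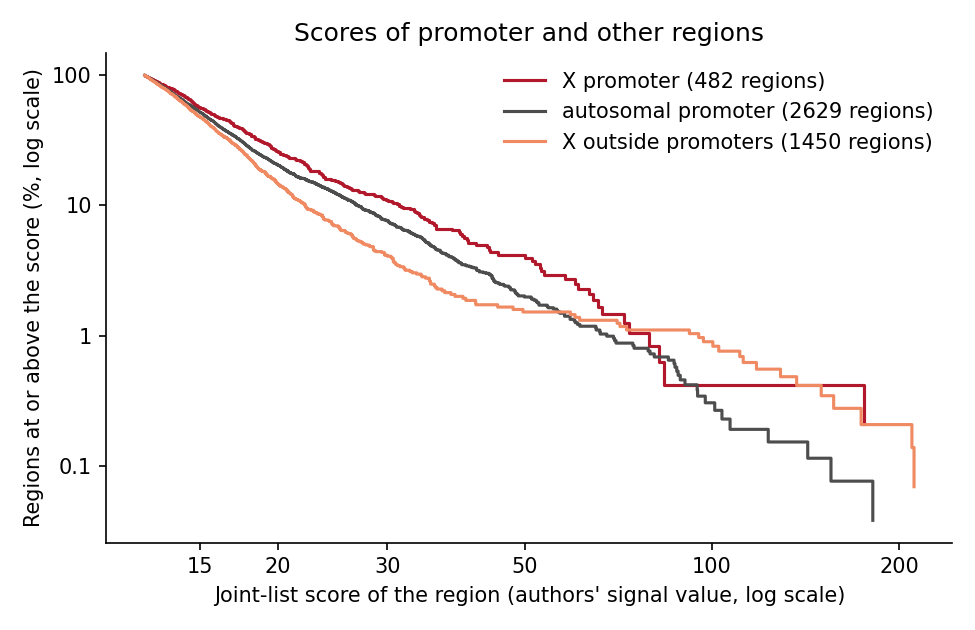
Share of regions at or above each joint-list score (both axes logarithmic) for 482 X promoter regions, 2629 autosomal promoter regions and 1450 X regions outside promoters. The X promoter line lies above the autosomal promoter line over most scores, with medians of 15.7 and 15.2. Just above 83.8, where only the region by nspc-17 remains among X promoter regions, it lies below both other lines. The X regions outside promoters with scores of 212 and 210 lie above every X promoter region.

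The optimal set, which the authors selected for agreement between the replicates, held 44 of the 482 members (9.13%, exact 95% interval 6.71 to 12.1). It held 158 of 2629 autosomal promoter regions (6.01%, interval 5.13 to 6.99, two-sided Fisher's exact test, adjusted p = 0.0276), and 3.40% of all nuclear regions of the joint list. Single autosomes ran from 3.55% to 7.78%, all below the X chromosome. The test compares numbers of regions from the same 2 libraries and says nothing of the spread between animals. The call was lost with a window of 500 bp upstream (9.09% against 7.16%, Fisher's exact test, adjusted p = 0.298), in the upper 5000 regions of the list (15.3% against 10.9%, adjusted p = 0.0621) and without regions near tRNA genes (8.97% against 6.04%, adjusted p = 0.0549). Since the optimal set is the top of the joint list by score, its members are also the 44 highest. The lowest of them lay by adm-2 with a score of 33.1, and the highest member outside the set lay by svh-5 with a score of 32.7.

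The member of highest score lay 745 bp upstream of nspc-17, a gene of a nematode-specific peptide family with several related copies. Its score was 175 in the joint list, 93.4 in the list of replicate 1 and 82.5 in that of replicate 2. The region spans positions 14525854 to 14526017 of the X chromosome, in intergenic sequence, and ranked 7 in replicate 1 and 21 in replicate 2. No other member scored above 83.8 in the joint list, and how reads from related copies were placed is not given in the sources used here.

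Genes of the other top regions are given with what they encode, and no theme among them was tested. The region 626 bp upstream of ins-39, which encodes an insulin-like peptide, scored 83.8, with 33.4 in replicate 1 and 48.9 in replicate 2. A region 491 bp upstream of epn-1, which encodes the endocytic adaptor epsin, scored 79.0, with 26.95 in replicate 1 and 48.6 in replicate 2. That of sms-2, which encodes a sphingomyelin synthase, lay 813 bp upstream and scored 73.4, with 28.1 and 45.4 in the 2 replicates. All 3 were found in both lists, with the higher score in replicate 2. The region of dpy-23, which encodes a subunit of the clathrin adaptor complex of endocytosis, scored 60.2, with 31.6 in replicate 1 and 34.998 in replicate 2.

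The region of ain-1, which encodes a GW182-type protein of the microRNA silencing complex, lay 886 bp upstream and scored 64.4, with 15.4 in replicate 1 and 48.3 in replicate 2. The region 293 bp upstream of puf-9, which encodes an RNA-binding protein of the Pumilio family, scored 63.5, with 22.7 and 38.6 in the replicates. That of bet-2, which encodes a bromodomain protein, scored 66.6, with 21.9 and 46.1. All 3 were found in both lists, and that of ain-1 had the lowest score of them in replicate 1. The region 367 bp upstream of rpl-11.2, which encodes a large-subunit ribosomal protein and has a paralog, scored 57.9, with 28.8 and 33.5.

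The region 727 bp upstream of spc-1, which encodes alpha spectrin, scored 51.3, with 21.2 in replicate 1 and 32.6 in replicate 2. The region 151 bp upstream of unc-115, which encodes an actin-binding protein of axon guidance, scored 50.02, with 19.5 and 27.8. The region of rgs-6, which encodes a regulator of G protein signalling, lay in an intron 172 bp upstream of an alternative start and scored 52.8. Its replicate scores were 35.2 in replicate 1, where it ranked 41, and 16.7 in replicate 2, where it ranked 765. The order was the other way at lfi-1, where the region scored 11.2 in replicate 1 at rank 983 and 39.7 in replicate 2 at rank 95. Both are in the optimal set, each with a far higher rank in 1 library than in the other.

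At ftt-2, which encodes a 14-3-3 adaptor protein, the replicates did not share a summit. A region 605 bp upstream scored 65.4 in the joint list and 26.2 in replicate 1, with no summit of replicate 2 within 100 bp. An overlapping region 814 bp upstream scored 41.7 in the joint list and 44.7 in replicate 2, with no summit of replicate 1 within 100 bp. The region 605 bp upstream was the one exception among the 20 highest members, since 19 were found in both replicate lists. All 20 were in the optimal set, which follows from their scores, as that set holds the 44 highest members.

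The remaining top regions lay by serp-1.1 (score 72.1, with 27.5 in replicate 1 and 44.7 in replicate 2), fbxb-58 (82.3, with 38.9 and 45.4), F09C8.2 (60.9, with 23.1 and 36.8), F28C10.3 (53.7, with 16.1 and 35.5) and C14A11.9 (51.97, with 19.3 and 36.2). Of these fbxb-58 encodes an F-box protein, and its region lay 989 bp upstream, the furthest from a start among all members. All 5 were found in both replicate lists, each with the higher score in replicate 2. The region of C28G1.2, with a score of 45.3, was the last of the 20. Its summit lay 67 bp downstream of the start of C28G1.2, in the promoter window of sec-15 on the other strand, an exocyst subunit gene, and 30 bp from a tRNA gene.

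**Figure D2:**
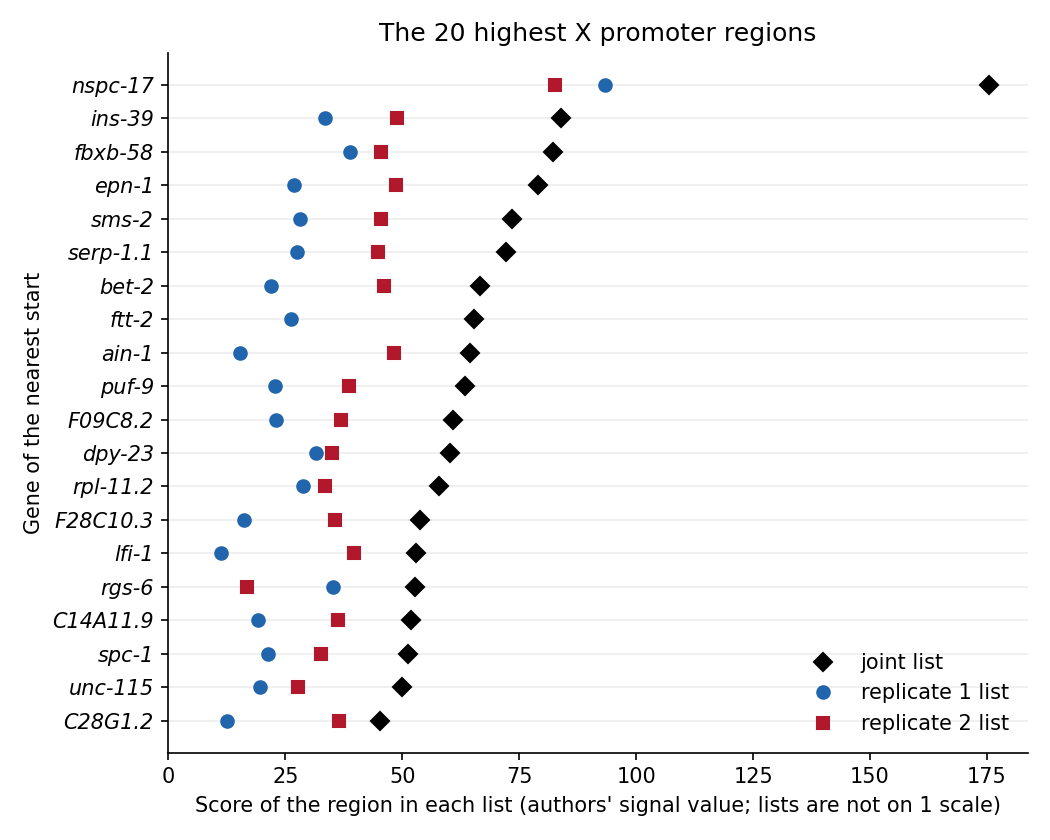
Scores of the 20 highest X promoter regions in the joint list (black diamonds), the list of replicate 1 (blue circles) and that of replicate 2 (red squares), in the authors' signal units, which are not on 1 scale between lists. The region by nspc-17 stands at 175, the others lie between 45.3 and 83.8, and only those by nspc-17 and rgs-6 have the higher replicate score in replicate 1, while the region by ftt-2 has no value in replicate 2.

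Support in the single replicates was partial. A summit of replicate 1 lay within 100 bp of 270 members (56.0%), and a summit of replicate 2 within 100 bp of 376 (78.01%). Both lists held 191 members (39.6%, exact 95% interval 35.2 to 44.1), replicate 1 alone held 79, replicate 2 alone 185, and 27 (5.602%) had no summit within 100 bp in either. Among autosomal promoter regions 39.03% were in both lists (two-sided Fisher's exact test, adjusted p = 0.845), with 36.2% to 40.6% on single autosomes, and among all nuclear regions 35.3%. The X chromosome lay within that spread. The lists hold 30000 regions for replicate 1 and 26202 for replicate 2, and read depth is unknown, so the unequal support of the replicates cannot be read as unequal signal.

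Support rose with score within the set. With the members ordered by score in 4 groups of 121, 121, 120 and 120, the shares in both lists were 69.4%, 47.1%, 27.5% and 14.2% from the highest group down. Autosomal promoter regions in 4 such groups gave 72.0%, 40.6%, 27.2% and 16.1%. The joint score is made from the same reads as the replicate lists, so this is a description. Of the 44 optimal members 40 were in both lists. Over the 191 members in both, the replicate scores had a Spearman rho of 0.478 across regions, which share the 2 libraries and the control, and the median ranks were 4137 in replicate 1 and 3986 in replicate 2.

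**Figure D3:**
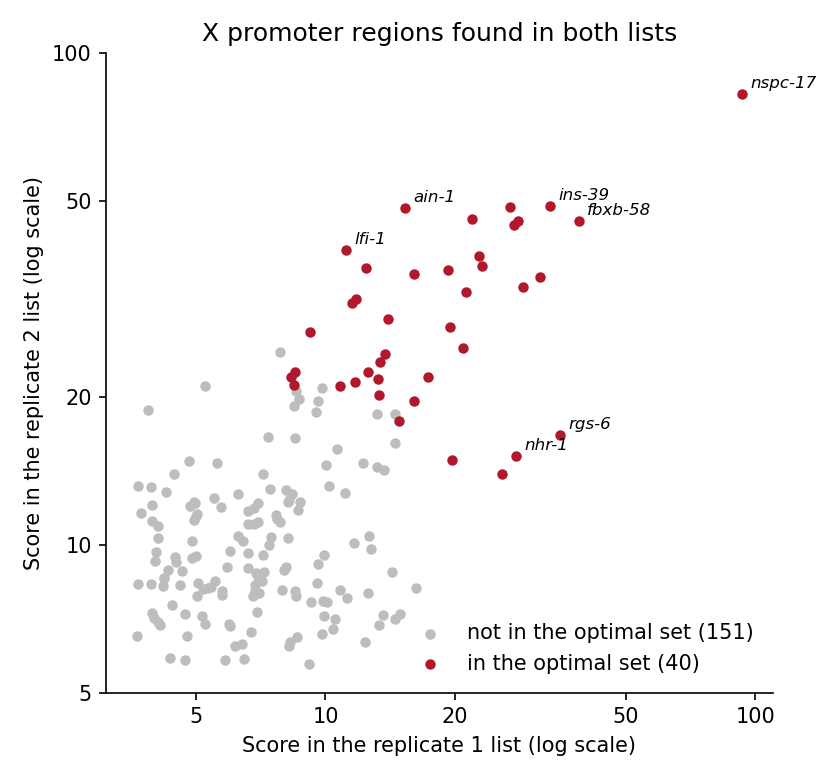
Score in the list of replicate 1 against that of replicate 2 (both axes logarithmic) for the 191 X promoter regions with a summit within 100 bp in both lists, 40 of them in the optimal set (red) and 151 outside it (grey). The region by nspc-17 lies apart at 93.4 and 82.5, ain-1 and lfi-1 lie toward replicate 2, and rgs-6 and nhr-1 toward replicate 1.

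Promoters held a smaller share of the regions on the X chromosome than on any autosome. The share was 482 of 1932 (24.9%, exact 95% interval 23.03 to 26.9), against 2629 of 8053 on the autosomes (32.6%, interval 31.6 to 33.7, two-sided Fisher's exact test, adjusted p = 1.28e-10) and 29.1% to 34.9% on single autosomes. Promoter windows also made up less of the X chromosome, 20.1% of its length against 25.1%, and it had 154 protein-coding genes per Mb against 209. Per Mb of promoter window there were 135 regions on the X chromosome and 127 on the autosomes. Outside the windows there were 102 and 87.7 per Mb, so the ratio of promoter to other density was 1.32 on the X chromosome and 1.44 on the autosomes, where it ran from 1.30 to 1.64. The X chromosome lay inside this range, near its lower end, and no test was made of the ratio. Of the 87 optimal regions on the X chromosome 44 lay in promoters (50.6%), and of the 252 on the autosomes 158 did (62.7%), a difference that was not tested.

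**Figure D4:**
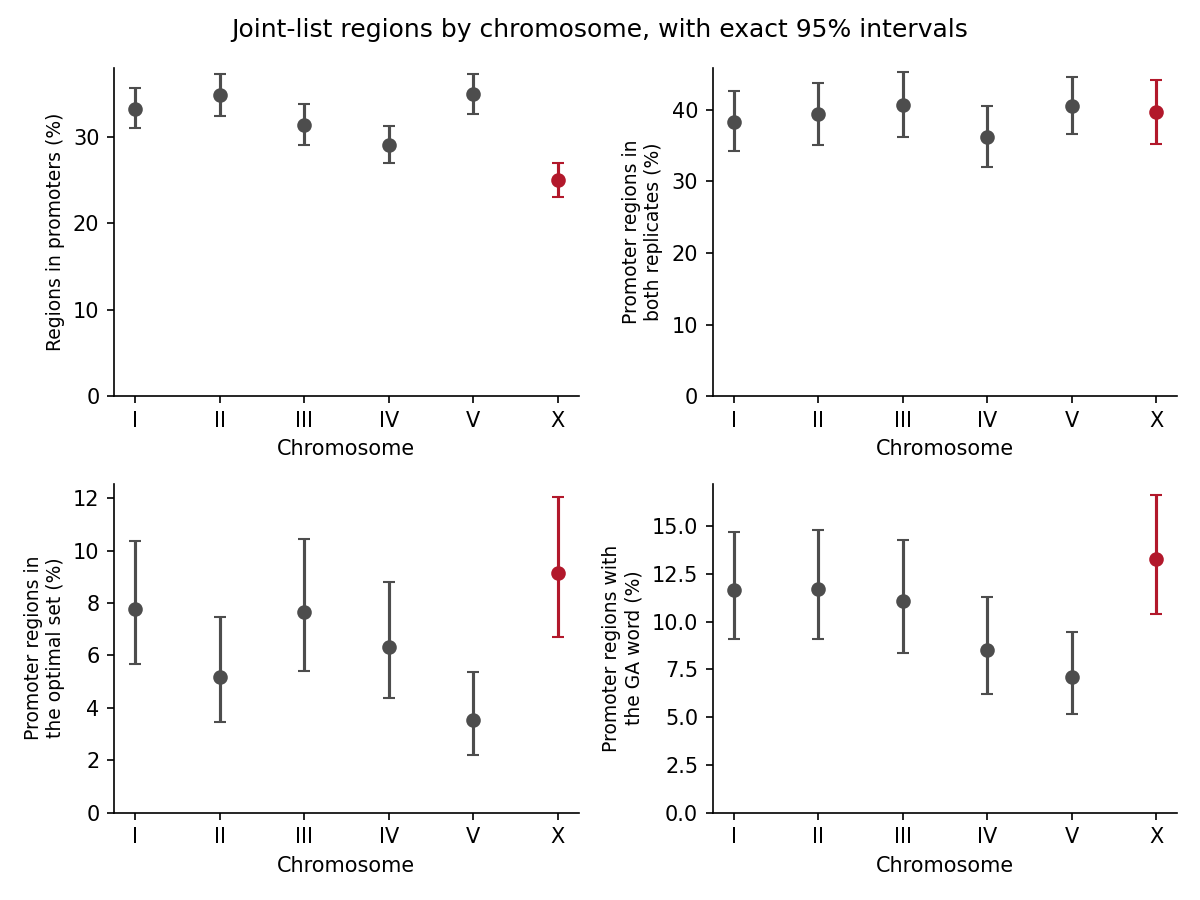
Shares of joint-list regions by chromosome with exact 95% intervals, the X chromosome in red: regions in promoters, promoter regions found in both replicate lists, promoter regions in the optimal set, and promoter regions with GAGAGA (the GA word). The X chromosome is lowest for regions in promoters at 24.9%, within the autosomes for support at 39.6%, and highest for the optimal set at 9.13% and for the GA word at 13.3%.

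Promoter summits on the X chromosome lay further from the start. Distances are signed, with negative values upstream. The median was -379 bp, with quartiles of -690.75 bp and -172 bp, against a median of -303 bp over the autosomes and -334 to -283 bp on single autosomes. The 250 bp before the start held 26.8% of members, against 34.1% of autosomal promoter regions. The next steps of 250 bp upstream held 131, 87 and 98 members, and 37 (7.68%) lay downstream of the start. Bases of the promoter windows themselves had a median of -419 bp on the X chromosome and -403 bp on the autosomes, a smaller gap than that of the summits. Within a window of 500 bp upstream the medians of the summits were -218 bp and -182 bp.

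**Figure D5:**
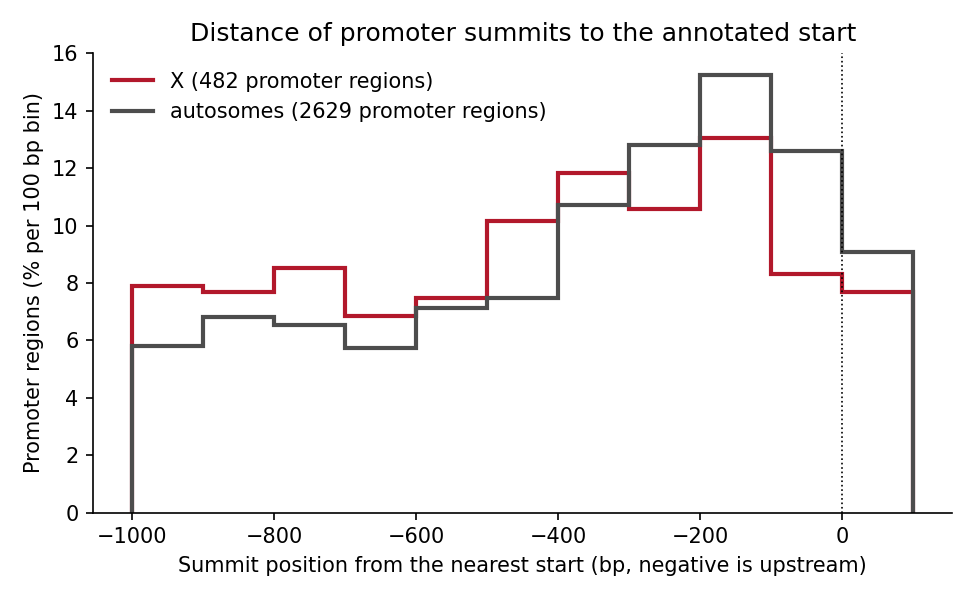
Position of promoter summits from the nearest protein-coding start, as the percentage of promoter regions in each bin of 100 bp (negative is upstream), for 482 X and 2629 autosomal promoter regions. The autosomal line is higher over the last 300 bp before the start, and the X line is higher further upstream, with medians of -379 bp on the X chromosome and -303 bp on the autosomes.

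At the upstream edge of the window the region of fbxb-58, 989 bp from the start, was the last inside, and a region by srd-50, 1002 bp upstream with a score of 15.1, was the first outside. At the downstream edge a region of ZK377.15, 100 bp past the start with a score of 16.2, was the last inside, and one by sox-3, at 122 bp with a score of 13.7, the first outside. Intergenic sequence held 328 member summits (68.05%, against 58.8% of autosomal promoter regions), introns 90 (18.7% against 21.9%), coding exons 25 (5.19% against 10.5%), 5' UTRs 25 (5.19% against 4.79%) and 3' UTRs 14 (2.90% against 3.99%). These classes use protein-coding genes only, so intergenic summits can lie in tRNA or other non-coding genes, as those by lev-9 and F28H6.7 do. Members lay along the whole chromosome, with 167, 167 and 148 in 3 successive stretches of equal length, or 19.2, 17.1 and 16.8 per 100 protein-coding genes. These stretches held 20, 10 and 14 of the optimal members.

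Divergent promoters, where the summit lies in the windows of starts on both strands, were rare among the members. They numbered 16 of 482 (3.32%, exact 95% interval 1.91 to 5.33), against 423 of 2629 autosomal promoter regions (16.1%, interval 14.7 to 17.6, two-sided Fisher's exact test, adjusted p = 4.87e-16) and 12.8% to 20.6% on single autosomes. Such sequence makes up 3.20% of all promoter window bases on the X chromosome and 9.32% on the autosomes. The members' share was thus close to that of their windows, while the autosomal share was above that of its windows. Among the divergent members was the region shared by asg-2, which encodes an ATP synthase subunit, and glr-6, a glutamate receptor gene, with a joint score of 30.5, no summit in replicate 1 and a score of 21.5 in replicate 2.

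A tRNA gene lay within 250 bp of 14 members (2.90%, exact 95% interval 1.60 to 4.83) and of 14 autosomal promoter regions (0.533%, interval 0.291 to 0.892, two-sided Fisher's exact test, adjusted p = 5.64e-05). Single autosomes ran from 0.185% to 1.15%. Of the X regions outside promoters 58 of 1450 lay as close to a tRNA gene (exact 95% interval 3.05% to 5.14%), so this closeness was not limited to the promoters of the X chromosome. The X chromosome carries 276 tRNA genes against 57 to 78 on each autosome, and 0.712% of its promoter window bases lie this close to one, against 0.235%. In the 500 bp window the shares were 1.68% and 0.616%, and the call was lost (Fisher's exact test, adjusted p = 0.147). The highest of these members were the regions of C28G1.2 and of C01C4.3, which scored 34.4 in the joint list, 8.32 in replicate 1 and 21.9 in replicate 2. Behind them came the region shared by lev-9, a gene of acetylcholine receptor clustering, and mom-1, a Wnt pathway gene, which scored 29.3 and was found in replicate 2 only. Of the 14 members, 4 were found in both replicate lists, against 39.6% of all 482 members and 35.3% of all nuclear regions. So few members cannot show a difference in support.

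GAGAGA, on either strand within 50 bp of the summit, was held by 64 members (13.3%, exact 95% interval 10.4 to 16.6) and by 261 autosomal promoter regions (9.93%, interval 8.81 to 11.1). This difference did not pass the threshold (two-sided Fisher's exact test, adjusted p = 0.0522), though every autosome, at 7.09% to 11.7%, was below the X chromosome. It passed with the word sought within 100 bp (25.3% against 19.1%, Fisher's exact test, adjusted p = 0.00537), in the 500 bp window (16.5% against 10.7%, adjusted p = 0.0177) and in the upper 5000 regions (18.1% against 12.6%, adjusted p = 0.0400). In windows of 101 bp, centred 379 bp upstream of every protein-coding start, whether or not a region lay there, GAGAGA was in 6.90% of 4114 on the X chromosome and 5.77% of 25190 on the autosomes. The word was held most by members of high score, in 28.9% of the highest of the 4 groups by score and 10.7%, 7.50% and 5.83% of the others. The autosomal groups had 17.3%, 8.37%, 8.22% and 5.78%. Of the optimal regions, 19 of 44 members and 46 of 158 autosomal promoter regions held it. Outside promoters 17 of 43 optimal X regions and 49 of 94 optimal autosomal regions did, so the word was not limited to promoters or to the X chromosome. Among the 20 highest members 7 held it, 6 of which are printed above.

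Base composition moved with score in the same way. Median GC content within 50 bp of the summit was 46.5% in the highest of the 4 groups of members and 36.6%, 34.7% and 33.7% in the others. The autosomal groups had 42.6%, 34.7%, 33.7% and 32.7%, so the trend was not limited to the X chromosome. Over all members it was 37.6%, against 33.7% to 36.6% on single autosomes, and its part in the share of GAGAGA was not tested. Repeats, as soft-masked in the genome, covered over 50% of the window in 99 members (20.5%), against 30.6% to 34.1% on single autosomes.

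CACCTG was held by 13 members (2.70%, exact 95% interval 1.44 to 4.57) and by 1.75% of autosomal promoter regions (two-sided Fisher's exact test, adjusted p = 0.258), with 1.11% to 2.37% on single autosomes. The windows at all starts held it in 2.04% on the X chromosome and 2.17% on the autosomes. The members with it had a median score of 14.4, against 15.7 over all members. The highest were fbxb-58, printed above, and zfp-3, a zinc finger gene, with a score of 31.9 in the joint list, 14.5 in replicate 1 and 18.4 in replicate 2. The first was the single optimal member with the word.

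GCGCAGGG was held by 3 members, of nspc-17, ins-39 and jkk-1 (0.622%, exact 95% interval 0.129 to 1.81), and by 1 of 2629 autosomal promoter regions (0.0380%, two-sided Fisher's exact test, adjusted p = 0.0276), with 0% to 0.185% on single autosomes. The first 2 are the highest members, at 175 and 83.8, while the region of jkk-1, a MAP kinase kinase gene, scored 13.3 and was found in replicate 1 only. GCGCAGGG was chosen as the core of the word of dosage compensation recruitment sites on the X chromosome. The direction of the difference was therefore foreseen, and the test is no independent sign of an X feature. The word is rare in promoters as such, in 0.0486% of the windows at all X starts and 0.0357% on the autosomes. The call rests on few regions and was lost with replicate 1 alone (adjusted p = 0.0989), replicate 2 alone (0.0535), the 500 bp window (0.298) and the 5000 highest regions (0.109, all by Fisher's exact test). The same word lay at 11 X regions outside promoters, 7 of them optimal and with a median score of 100.3, and at 3 autosomal regions outside promoters, none of them optimal. GCGAAGGG lay at 3 members, of nspc-17, fbxb-58 and mai-1 (score 18.4 for this region of mai-1), at 9 X regions outside promoters and at 3 autosomal regions in all. Comparison of the 190 pairs among the 20 highest members gave a longest shared run of 14 bp, a CA repeat in ain-1 and spc-1. The run of nspc-17 and fbxb-58, which includes GCGAAGGG, was 13 bp long. Those of ain-1 and C28G1.2 and of dpy-23 and unc-115 were also 13 bp, and that of epn-1 and F28C10.3 was 12 bp. No run length was tested.

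Genes that read the X signal and set sex and dosage compensation lie partly on the X chromosome. Of 6 such X-linked genes 2 had a promoter region, neither in the optimal set. The share was 33.3% of 18 such genes on the autosomes and 16.4% of all X-linked protein-coding genes, and 6 genes are too few to tell these apart. At fox-1, which encodes an RNA-binding protein of the X signal, it scored 17.5 in the joint list, 13.3 in replicate 1 and 6.85 in replicate 2, in an intron 196 bp upstream of an alternative start. At sdc-2, which directs dosage compensation to the X chromosome, it scored 13.7, with 6.46 in replicate 1 and none in replicate 2. No promoter region was placed at xol-1, sex-1, ceh-39 or sdc-1. Within 5000 bp of the gene the joint list held 2 regions at xol-1, with a highest score of 137, 3 at ceh-39 (21.1), 1 at sex-1 (18.2) and 0 at sdc-1. The X chromosome held 109 regions of the joint list per Mb, so a region this near a gene is common. These counts were not tested against that density.

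Counts of X-linked genes with a promoter region are given by gene list beside the 16.4% of all X-linked genes, whose best regions had a median score of 15.9. The share of the same list on the autosomes is given as a description, and no list was tested. Lists can share genes or regions, so their counts are not independent. The gene kin-20 also counts among G protein genes, and daf-12 among nuclear hormone receptor genes. The region shared by asg-2 and glr-6 counts for the respiratory chain and for ionotropic receptors. Among heterochronic genes, which time larval cell fates, 5 of 6 had one, against 4 of 12 on the autosomes. Apart from ain-1 none was in the optimal set. The region of kin-20, a casein kinase gene, scored 15.9, with 4.30 in replicate 1 and 8.88 in replicate 2. The better of 2 regions of lin-14, which encodes a nuclear protein of early larval fates, also scored 15.9, with 9.83 and 6.57. The regions of hbl-1, a zinc finger gene, and of daf-12, a nuclear receptor gene, were at most 15.7. The median over the 5 genes, 15.9, was the same to 3 digits as that over all X-linked genes with a region.

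Nuclear hormone receptor genes had a region at 9 of 27 X-linked members (33.3%), against 8.10% of 247 on the autosomes, with a median best score of 17.3. Those of nhr-1 (43.9, with 27.8 in replicate 1 and 15.1 in replicate 2), nhr-40 (39.6, with 13.7 and 24.4) and nhr-3 (33.8, with 11.7 and 21.4) were optimal. All 3 were found in both lists. Homeobox genes had 1 of 26, against 18.2% of 66 on the autosomes, at ceh-89 (20.03, found in replicate 1 only). Other transcription factor genes had 3 of 30 (20.5% on the autosomes), led by mdl-1, which encodes a MAD-like protein (18.4, found in replicate 2 only).

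Neuronal lists on the X chromosome lay on both sides of the background. Synaptic and vesicle genes had 5 of 12 (41.7%), close to the 42.6% of 54 on the autosomes, led by rab-14, a small GTPase gene (38.2, with 13.3 in replicate 1 and 21.7 in replicate 2), and unc-18, which encodes a syntaxin-binding protein of vesicle release (26.1, with 7.43 and 12.97). Axon guidance genes had 5 of 25, against 36.8% of 68 on the autosomes, with madd-3 (28.7) and mig-13 (22.4, found in replicate 1 only) behind unc-115. Neuropeptide and insulin-like peptide genes had 7 of 38 (12.04% on the autosomes), of which flp-20 scored 18.4 behind ins-39. Neuropeptide and amine receptor genes had 8 of 52 (10.2% on the autosomes). They were led by sprr-2 (21.9, found in replicate 1 only) and ser-1, a serotonin receptor gene (20.6). Ionotropic receptor genes had 3 of 29 (12.8% on the autosomes). Potassium and calcium channel genes had 4 of 22 (20.3%), led by twk-17 (20.4, found in replicate 2 only). Only rab-14, unc-115 and ins-39 among these were optimal.

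Ribosomal protein, translation, respiratory chain, and proteasome and heat shock genes were few on the X chromosome, with 2 to 6 in each list. The remaining lists follow them. Ribosomal protein genes had 1 of 2, rpl-11.2 (64.6% on the autosomes), and translation genes 2 of 3 (34.7%), led by eef-1A.2, which encodes an elongation factor and has a near-identical paralog (40.3, with 13.97 in replicate 1 and 28.8 in replicate 2). Respiratory chain genes had 4 of 6 (46.5% on the autosomes), with asg-2 highest, then ucr-2.2 (18.8, found in replicate 2 only) and sdha-1 (17.8). Proteasome and heat shock genes had 2 of 5 (27.5% on the autosomes), dnj-7 (19.4) and hsp-3 (13.7, found in replicate 2 only). G protein and small GTPase genes had 7 of 20 (37.97% on the autosomes), with kin-29, a kinase gene (35.4, with 9.21 and 27.1 in the replicates), and pix-1, a GTPase exchange factor gene (31.1), behind rgs-6. Wnt, Notch, TGF-beta and FGF genes had 4 of 16 (20.8% on the autosomes), led by mom-1 and daf-3, a SMAD gene (26.2). The region of sma-9, a zinc finger gene of body size (23.8), was in neither replicate list. Muscle genes had 2 of 16 (25.6% on the autosomes), led by act-4, an actin gene (25.4). Innexin and DEG/ENaC genes had 2 of 15 (4 of 40 on the autosomes), led by del-8 (16.97, found in replicate 2 only). Collagen and cuticle genes had 1 of 44 (8.82% on the autosomes) and chemoreceptor genes 0 of 34 (6.62% of 1269).

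The 5 genes with 3 promoter regions were lfi-1, mai-1, C09B7.2, myrf-2 and syd-9. The regions of lfi-1 scored 52.99, 15.3 and 12.5, the last 2 found in replicate 2 only. Those of mai-1 scored 40.4, 18.4 and 13.4. The last of these was found in replicate 2 only, and its summit lay in a 3' UTR within the span of spc-1. The regions of C09B7.2 scored 25.4 (found in replicate 2 only), 19.5 and 12.5 (replicate 1 only). The first 2 overlap, so they do not count as separate sites. Those of myrf-2, which encodes a membrane-bound transcription factor, scored 24.5, 14.3 and 14.1 (replicate 1 only). Those of syd-9, a zinc finger gene of synapse development, scored 21.8 (replicate 1 only), 18.1 and 14.6 (replicate 2 only). At lfi-1 and mai-1 a single region stood well above the others.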

How the data were processed

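ZAG-1 ChIP-seq of 2 biological replicates of 1 group was analysed from the deposited ce11 region lists; libraries were of 150 to 350 bp, per the labels. The authors made each replicate list from 1 alignment and a control, the joint list from both alignments, and the optimal set from these by irreproducible discovery rate, per the deposited notes. Which aligner, caller and threshold were used is not given in the sources used here. Each region carries a score, the signal value that the authors deposited, which is not scaled between lists. Read depth is unknown, so intervals cover the counting of regions only.

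Starts were protein-coding transcript starts of Ensembl release 115 (WBcel235, the ce11 assembly). Mitochondrial regions were left out. A region counted as found in a replicate when summits lay within 100 bp. Words were looked for within 50 bp of the summit on either strand. Shares were compared by two-sided Fisher's exact tests, Benjamini-Hochberg adjusted over 9 comparisons at 0.05, with exact (Clopper-Pearson) 95% intervals; regions are not replicates, so the range over the 5 autosomes is given beside each. Gene lists (21) are described without tests. The members and lists were chosen with earlier results of these data known. Names were given to genes of the 20 highest members, genes with 3 or more regions, up to 3 genes per list, 6 X signal genes and regions at the window edges; outside this rule, jkk-1, svh-5, adm-2, sec-15, zfp-3, lev-9, C01C4.3, daf-12 and hbl-1 were named after their values were seen. Alternatives were each replicate alone, a 500 bp window, the 5000 highest regions, leaving out regions near tRNA genes, and other distances for support, tRNA genes and words. Python 3.11.15, NumPy 2.4.6, SciPy 1.17.1 and matplotlib 3.10.9 were used, and the share test and window assignment were tested on simulated data.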

Additional observations from a re-analysis of the deposited data

How the results depend on the processing

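No paired analysis was possible because 1 group gives no pairs. Keeping 1 promoter region per gene was chosen after seeing the data. Differences are X minus autosomes in percentage points. Under all alternatives run, the promoter share and the divergent share stayed lower on the X chromosome and past the threshold. The share of genes with a region was -0.175 to 1.49 with 1 replicate left out, -0.883 in the 500 bp window and -0.247 without regions near tRNA genes. Support in both replicates was -0.0501 in the 500 bp window and -0.157 with 1 region per gene. CACCTG ran from -0.165 to -0.00482 with 1 replicate left out. The optimal share was 1.93 in the 500 bp window, 4.45 among the 5000 highest regions and 2.93 without regions near tRNA genes, and the tRNA share 1.07 in the 500 bp window, none past the threshold. GAGAGA passed it at 5.75 in the 500 bp window, 5.52 among the 5000 highest, 4.17 with 1 region per gene and 6.22 within 100 bp. For the same word the difference was 2.01 to 2.74 with 1 replicate left out and 3.17 without regions near tRNA genes, none past the threshold. GCGCAGGG missed it at 0.398 to 0.554 with 1 replicate left out, 0.281 in the 500 bp window and 0.628 among the 5000 highest. The ratio of median scores was 1.00 to 1.04 with 1 replicate left out and 1.06 among the 5000 highest. The difference in median distance was -36 bp in the 500 bp window and -101 bp with 1 region per gene. Smaller windows and shorter lists leave fewer regions to compare. Causes beyond this were not tested. Without read depth, scores could not be weighed between libraries.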
